A study of Mus musculus with 28 samples.

Results

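The Kit locus on mouse chromosome 5 was mapped for H3K27ac, a histone acetylation found at active promoters and enhancers. Its peaks were all those listed under Kit in the authors' tables, or lying in a window of chromosome 5 from 99.99 kb before the Kit start to 43.3 kb past its end. By this rule 90 of 471458 peaks in 12 H3K27ac libraries were members. Kit was listed on the + strand from 75574987 to 75656721, an extent of 81.735 kb. By the position of the highest summit, 15 peaks lay at the promoter (within 1000 bp of the listed start), 25 farther inside the gene, 21 upstream inside the window and 29 farther upstream, and none lay downstream. The authors' own location classes of the same peaks were intergenic for 43, intron for 25, promoter for 15 and upstream for 7.

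Kit encodes KIT, a receptor tyrosine kinase that is activated by KIT ligand (stem cell factor, encoded by Kitl) and signals through the PI3 kinase, MAP kinase and JAK-STAT pathways. In the testis KIT marks spermatogonia that have entered differentiation, while undifferentiated spermatogonia carry little of it, and it is needed for their survival and division. Full-length KIT is lost as cells enter meiosis, and spermatids make a truncated form from a start inside the gene. Leydig cells of the testis and mast cells also carry KIT.

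H3K27ac was profiled by ChIPmentation, a chromatin immunoprecipitation with transposase-made libraries, in testicular germ cells of C57BL/6 mice. Postnatal day 7 mice gave Thy1+ and c-Kit+ spermatogonia, each as wild type (WT) and Scml2-KO (KO), whereas pachytene spermatocytes (PS) and round spermatids (RS) were from adults and were KO only. Cells were isolated by STA-PUT sedimentation or by magnetic sorting. Each of these 6 groups had 2 libraries, and 16 input libraries in 8 groups carried no immunoprecipitation. SCML2 is a germ cell protein of the Polycomb family. H3K27ac in PS and RS of WT mice was not analysed here, so genotype could be compared in spermatogonia only, and in the KO series age (postnatal day 7 or adult) cannot be told apart from stage. The labels do not say whether replicates came from separate animals, so a p-value measures only the spread between these libraries.

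The sequence just upstream of the Kit start is shown because the peaks nearest to the start cover part of it in 6 of the 12 libraries. It is the RefSeq sequence of GRCm38.p6, chr5:75574737-75574986, + strand, written 5′ to 3′, with the GC box letters GGGCGG in capitals.
Kit upstream window: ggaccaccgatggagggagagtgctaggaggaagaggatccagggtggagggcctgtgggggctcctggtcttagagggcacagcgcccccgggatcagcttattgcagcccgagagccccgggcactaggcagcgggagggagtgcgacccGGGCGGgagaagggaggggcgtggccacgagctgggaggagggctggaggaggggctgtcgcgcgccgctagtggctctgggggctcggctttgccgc
These 250 bases held 70.8% G and C and 17 CpG dinucleotides, against medians of 52.4% and 6 over 32817 RefSeq promoter windows of the same length. GGGCGG, the core of the GC box that SP1-type factors read, occurred once, beginning 98 bases before the start, and 32.7% of the windows held it on either strand. CANNTG (E-box, present in 66.2% of windows), TGACG (cyclic AMP response half-site, 17.7%), AACNG (MYB core, 74.2%), AGGTCA (retinoic acid receptor half-site, 14.0%) and AGATAA (read by GATA factors, 9.99%) were not among these letters on either strand. GGGCGG overlaps none of the other motifs searched.

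The libraries held between 17877 and 73316 peaks, with the adult libraries at 63322 or more and the spermatogonial ones at 36362 or fewer. The lowest signal height that was called ranged from 5 to 7 in the 12 libraries. In all 12, every listed fold enrichment equalled (height + 1) divided by (a single background height + 1) to within 1%, so it was relative to 1 genome-wide background (0.564 to 1.62) and carried no local or input correction. A site without a peak in a library is a site below that library's calling threshold and is not shown to lack acetylation.

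Peaks at the Kit locus were few in Thy1+ spermatogonia and more numerous in c-Kit+ spermatogonia and in pachytene spermatocytes. Thy1+ WT had 0 and 2 peaks and Thy1+ KO had 2 and 1. c-Kit+ WT had 9 and 3 and c-Kit+ KO had 15 and 7. The 4 c-Kit+ libraries thus lay above all 4 Thy1+ libraries, a separation seen for 2.83% of 8009 genes with at least 10 peaks in these libraries. PS KO had 20 and 18 peaks and RS KO had 8 and 5. Both PS KO libraries lay above both RS KO libraries, as they did for 21.8% of 8578 genes, and above both c-Kit+ KO libraries, as they did for 66.2% of 5911 genes.

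**Figure D1:**
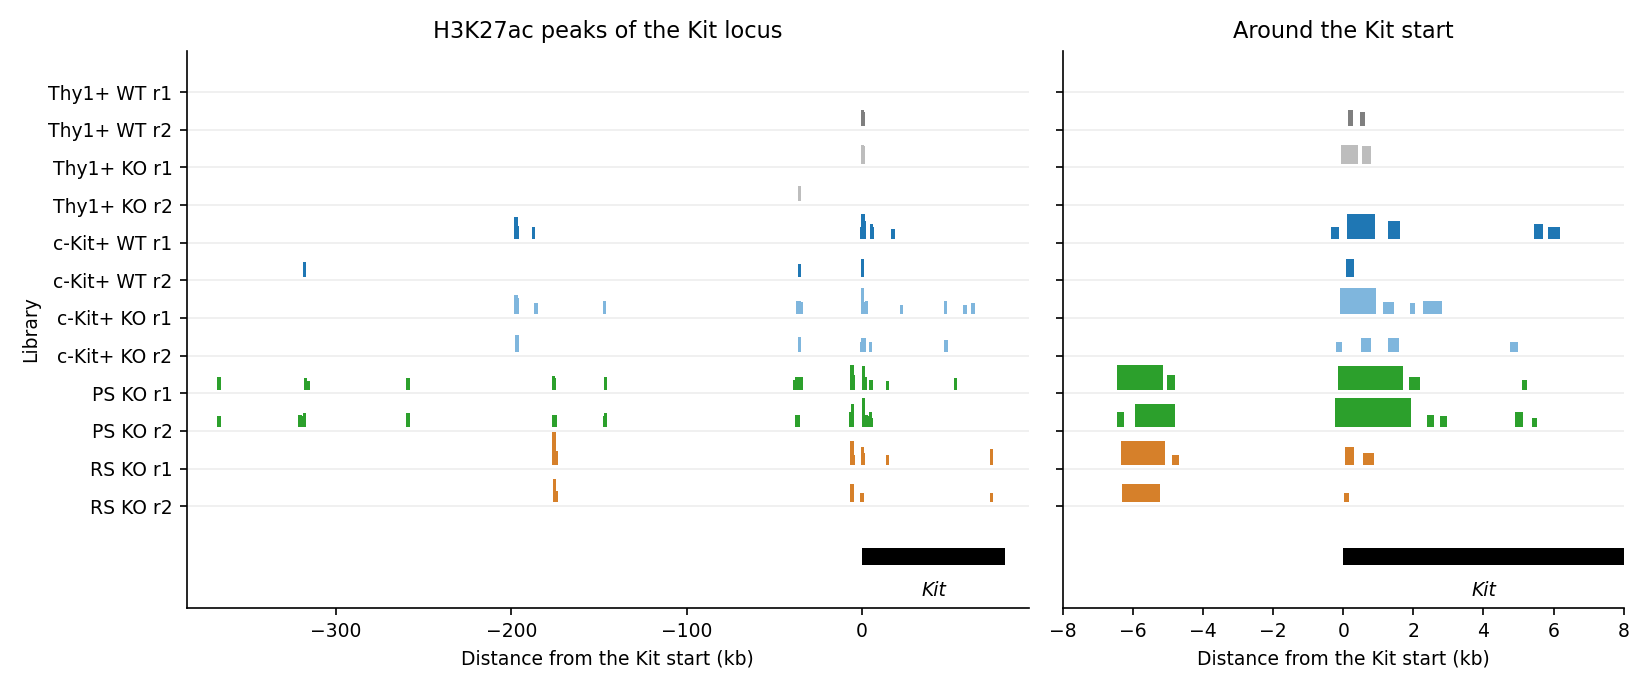
Position of every Kit peak in the 12 H3K27ac libraries (rows) against the distance from the Kit start in kb, over the whole locus on the left and within 8 kb of the start on the right. Bar height is proportional to fold enrichment, narrow peaks are drawn wider than their length so that they can be seen, and the black box is the listed gene. The 4 adult libraries share a block near 6 kb upstream where none of the 8 spermatogonial libraries has a peak.

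Scaled to the size of the library, the spermatocyte values lay within the range of c-Kit+ spermatogonia. Kit peaks per 10000 peaks were 3.02 and 1.53 in c-Kit+ WT, 4.13 and 3.05 in c-Kit+ KO, and 2.90 and 2.81 in PS KO. They were 0 and 1.12 in Thy1+ WT, 0.577 and 0.470 in Thy1+ KO, and 1.09 and 0.790 in RS KO. The Thy1+ and RS libraries were all below the lowest c-Kit+ or PS library on this scale. For Thy1+ this rested on the far upstream peaks. In the window alone Thy1+ WT replicate 2 stood at 1.12 and c-Kit+ WT replicate 2 at 1.02, each with 2 peaks.

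**Figure D2:**
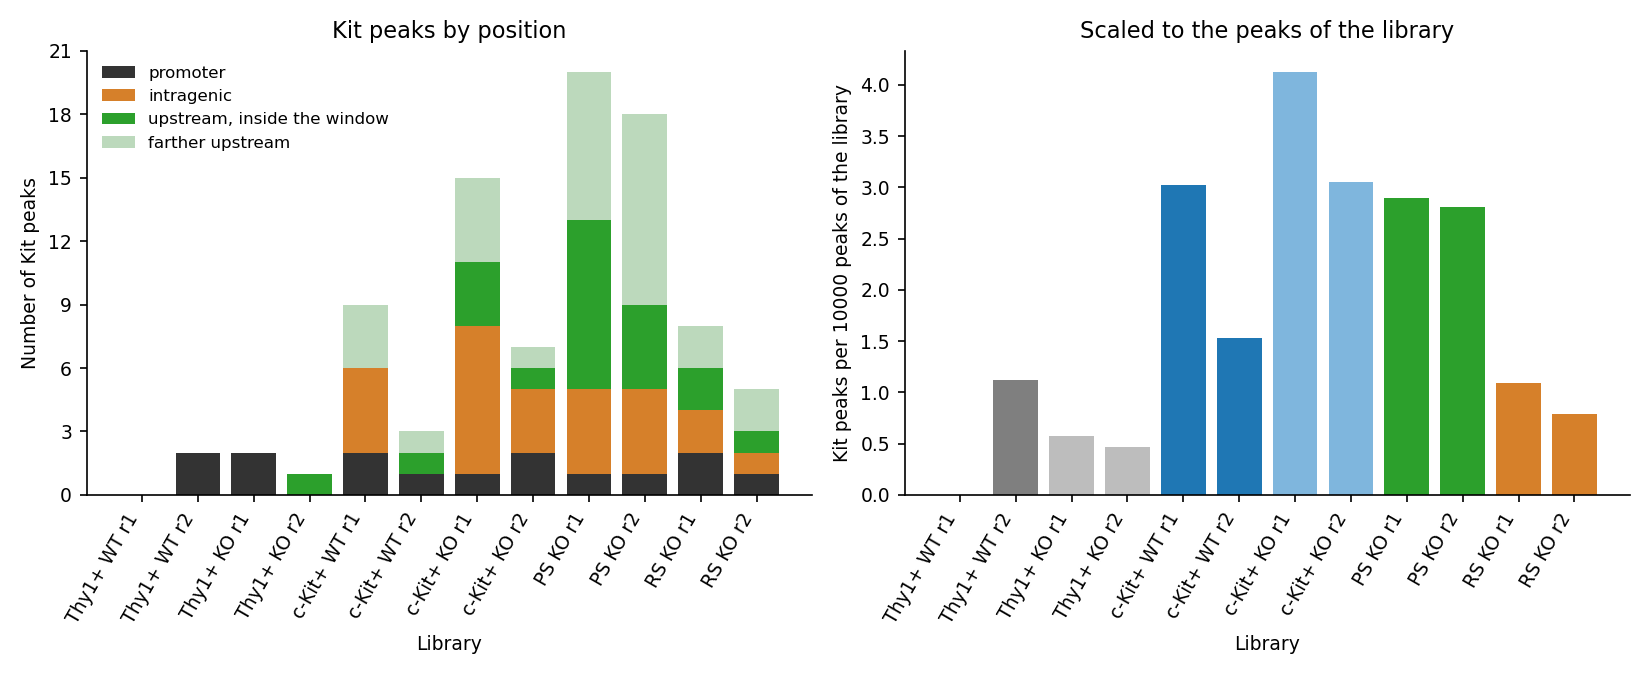
Number of Kit peaks per library, stacked by position (left), and Kit peaks per 10000 peaks of the library (right), for the 2 replicates (r1, r2) of each group. Intragenic peaks are missing from the 4 Thy1+ libraries, and the scaled value of both RS KO libraries is below that of every c-Kit+ and PS KO library.

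Within the window around the gene, leaving out the far upstream peaks, the peak number was 6.25 ± 3.69 (SD, n = 4) in c-Kit+ and 1.25 ± 0.957 (SD, n = 4) in Thy1+ libraries. The ranges met there, with 2 to 11 peaks in c-Kit+ and 0 to 2 in Thy1+ libraries. The difference of 5 peaks, with genotype kept fixed, had an exact permutation p of 0.111 (2-sided, smallest possible 0.0556, adjusted p = 0.333 over 3 such tests). This p was above the smallest possible one, so the observed arrangement was not the most extreme. The test could not have gone below 0.05 in any case. KO and WT spermatogonia had 5 ± 4.55 and 2.5 ± 2.52 peaks (SD, n = 4 each), with an exact permutation p of 0.333 (smallest possible 0.0556, adjusted p = 0.457). Adult KO cells and KO spermatogonia had 7.75 ± 4.27 and 5 ± 4.55 peaks (SD, n = 4 each), with an exact permutation p of 0.457 (adjusted p = 0.457). Many of the peaks of c-Kit+ cells were weak: among peaks with a −log10 q of at least 5, the c-Kit+ libraries exceeded the Thy1+ libraries by 0.5 peaks.

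The promoter carried the most widely called Kit signal, with a peak in 10 of 12 libraries, and 18.5% of all regions called in 2 or more libraries were called in at least 10. The 2 libraries without one were Thy1+ WT replicate 1 and Thy1+ KO replicate 2. The fold enrichment of the strongest promoter peak was 5.43 in Thy1+ WT replicate 2 and 6.58 in Thy1+ KO replicate 1. It was 8.55 and 6.20 in c-Kit+ WT, and 8.99 and 4.66 in c-Kit+ KO. It was 8.01 and 10.1 in PS KO and 6.26 and 3.25 in RS KO. The groups overlapped, with the c-Kit+ KO replicates spanning the values of both Thy1+ libraries that had a peak.

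**Figure D3:**
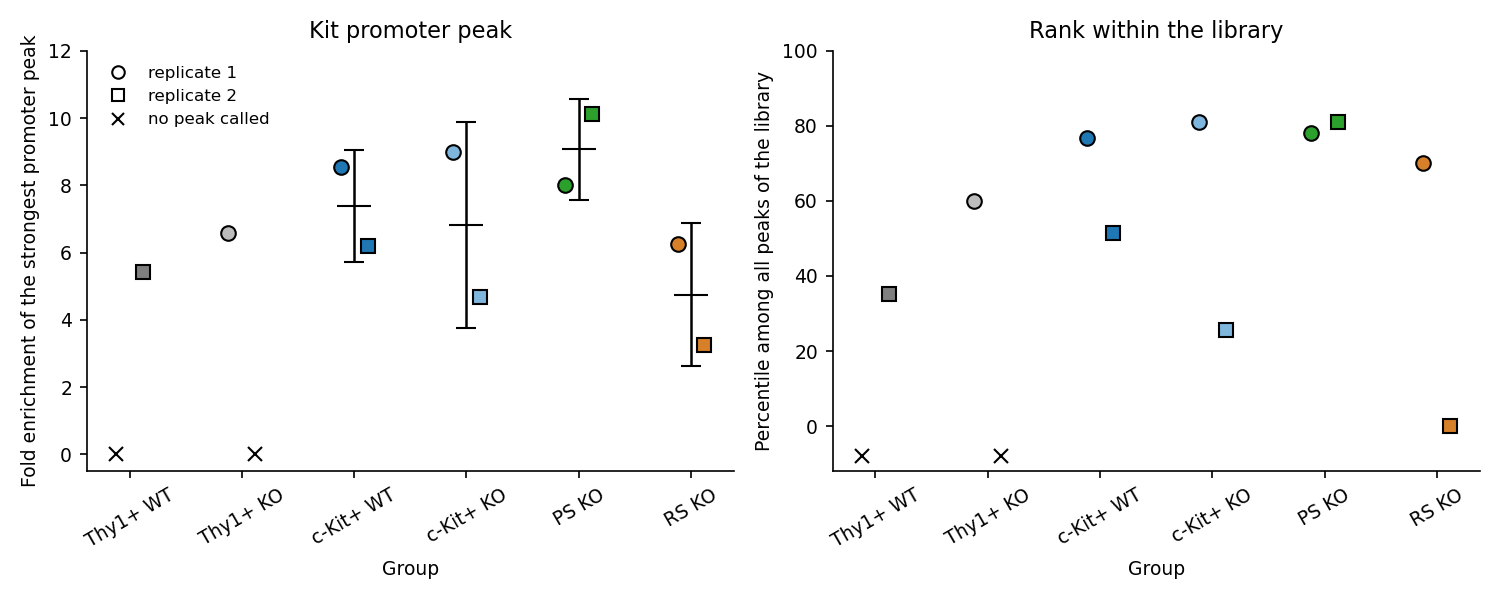
Fold enrichment of the strongest peak within 1000 bp of the Kit start (left, with mean and SD where both libraries of a group had a peak) and its percentile among all peaks of the same library (right). Circles are replicate 1, squares replicate 2, and crosses mark libraries with no promoter peak, which carry no value. Both PS KO libraries lie near the 80th percentile, and 1 RS KO library is at the lowest fold enrichment of its library.

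The signal heights behind these values were small. They were 8 and 12 in the 2 Thy1+ libraries with a peak, 14 and 9 in c-Kit+ WT, 18 and 7 in c-Kit+ KO, 20 and 18 in PS KO, and 15 and 5 in RS KO. An exact 95% Poisson interval runs from 12.2 to 30.9 for the height of 20 and from 1.62 to 11.7 for the height of 5, and these intervals cover counting error only. Within its own library the promoter peak stood at the 78.2 and 80.9 percentile of all peaks in PS KO, at the 76.7 and 51.5 percentile in c-Kit+ WT and at the 81.1 and 25.5 percentile in c-Kit+ KO. In the 2 Thy1+ libraries with a peak it stood at the 35.1 (WT) and 59.9 (KO) percentile. In RS KO it stood at the 70.0 percentile and, in replicate 2, at the lowest fold enrichment called in that library.

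Promoter acetylation also differed in width. The peaks touching the 1000 bp on either side of the start covered 1832 and 2162 bp in PS KO, where a single peak ran across the start in both libraries. They covered 1047 and 224 bp in c-Kit+ WT and 1029 and 438 bp in c-Kit+ KO. In the 2 Thy1+ libraries with a peak they covered 292 and 743 bp, and in RS KO 575 and 146 bp. The 2 largest values were those of PS KO. The highest summit lay inside the gene in all 10 libraries, between 80 and 768 bp after the start, and in the 4 adult libraries between 83 and 371 bp after it.

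In the limma fit across 61463 regions called in 2 or more libraries, the Kit promoter region (chromosome 5, 75574639 to 75577173) had a log2 fold enrichment 0.78 higher in c-Kit+ than in Thy1+ cells (SE 0.227, limma adjusted p = 0.108), which did not pass the threshold of 0.05. Its unadjusted p was 0.00059. A region with no call took 0.17 in this contrast, so 0 is not its baseline. In this contrast limma called 0.356% of all regions. Same-numbered spermatogonial libraries deviated together, with correlations of 0.279 to 0.495 in all 6 pairs of groups. In a fit blocked on that number the limma adjusted p of the same difference was 0.00332, with 1.69% of all regions called. The block covered all 12 libraries, the adult ones included, although the numbers were not taken to pair those. The call depends on the fit in other ways: with the spread of the fit modelled on the mean level the limma adjusted p was 0.0371, with regions called in at least 6 libraries it was 0.0289, and without single libraries it ranged from 0.0131 (without Thy1+ KO replicate 2) to 0.839 (without Thy1+ WT replicate 1). Without centring the libraries the promoter difference was 0.54 and did not pass (limma adjusted p = 0.747, 0.107% of all regions called). With peaks of a −log10 q of at least 5 it was 0.55 and did not pass either (limma adjusted p = 0.243, 0.0459% called). A library without a peak enters the main fit at its lowest called fold enrichment, and the 2 Thy1+ libraries without a promoter peak entered in that way. limma pooled the spread over all regions, so the SE is the same for every region. The limma p-values and intervals of Kit regions thus do not measure the spread of each region between its own replicates. The centred log2 values of the promoter region were −1.51 and −0.637 in Thy1+ WT and −1.39 and −1.42 in Thy1+ KO. They were −0.263 and −0.485 in c-Kit+ WT, and −0.276 and −0.807 in c-Kit+ KO. Thy1+ KO replicate 1 had a promoter peak, yet after centring its −1.39 was near the −1.42 and −1.51 of the 2 libraries without one.

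Leydig cells carry KIT too, so their markers are given beside the c-Kit+ values. Star, which moves cholesterol into mitochondria for steroid synthesis, had a promoter peak in all 4 c-Kit+ libraries, at fold enrichments of 6.27, 6.20, 5.67 and 5.83, and in 1 of 4 Thy1+ libraries, at 4.05. Cyp11a1, which makes the first steroid of the Leydig cell pathway, had one in 3 of 4 c-Kit+ libraries, at 6.84, 6.20 and 6.15, and in no Thy1+ library. Insl3, a hormone of Leydig cells, had one in c-Kit+ KO replicate 1 (4.73) and in PS KO (7.63 and 9.06). From Thy1+ to c-Kit+ cells none of these 3 passed the threshold, with limma adjusted p-values of 0.133 for Star, 0.285 for Cyp11a1 and 0.574 for Insl3. The summed promoter fold enrichment of 5 Leydig cell markers was 0 in both Thy1+ WT libraries and 0 to 4.05 in Thy1+ KO, against 12.4 to 13.1 in c-Kit+ WT and 5.83 to 16.6 in c-Kit+ KO. It was 22.5 to 25.1 in PS KO and 4.30 to 5.41 in RS KO. Cyp17a1 and Hsd3b1 of this list had no promoter peak in any library. The part of Leydig cells in the Kit values was not tested. Cpa3, Mcpt4 and Cma1, which define mast cells, had no promoter peak in any of the 12 libraries.

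Other markers of differentiating spermatogonia gave little check of the c-Kit+ label. In c-Kit+ WT, Kit itself was the only one of 6 such genes with a promoter peak, and in c-Kit+ KO replicate 1 Stra8 and Sohlh1, both at 3.78, were added. Dmrtb1 and Rhox13 had promoter peaks in the 4 adult libraries and in no spermatogonial one. Of 5 spermatocyte markers all had a promoter peak in each adult library and 1 to 3 in each spermatogonial library, and of 6 round spermatid markers all had one in each adult library and 1 or 2 in each spermatogonial library. Of 8 markers of undifferentiated spermatogonia, 2 had a promoter peak in each Thy1+ WT library, 2 to 6 in Thy1+ KO, 1 in each c-Kit+ WT library, 1 to 4 in c-Kit+ KO, 4 to 5 in PS KO and 3 to 5 in RS KO, and none of the 5 tested differed past the threshold between c-Kit+ and Thy1+ cells in limma. Of 6 Sertoli cell markers, 3 had a promoter peak in each Thy1+ WT library, 1 to 3 in Thy1+ KO, 2 to 4 in c-Kit+ WT, 1 to 4 in c-Kit+ KO, 5 in PS KO and 3 in RS KO, with summed fold enrichments of 15.7 to 22.5, 9.59 to 25.8, 15.5 to 27.4, 9.91 to 25.5, 45.4 to 59.2 and 13.5 to 16.8 in that order. Rhox5 had none in any library. Of 4 peritubular and vascular markers, 1 to 3 had a promoter peak in every library. Of 3 macrophage markers, Cd68 had a promoter peak in Thy1+ KO replicate 1 and in the 4 adult libraries, and Csf1r in 3 adult libraries. In bulk libraries a change in the share of cells that carry the mark and a change of the mark in each cell cannot be told apart.

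Upstream of Kit, the block nearest to the gene was called in the adult libraries only. It spanned 75568523 to 75570295, 6.46 to 4.69 kb before the start, and no other protein-coding gene lies between it and Kit in the RefSeq table. Its fold enrichment was 8.39 and 8.00 in PS KO and 8.21 and 6.49 in RS KO, with heights of 21, 14, 20 and 11. None of the 8 spermatogonial libraries had a peak there. A call in all 4 adult and in no spermatogonial library was found for 2 of 19 Kit regions and for 10.4% of all regions called in 2 or more libraries. The count is near that share, so the pattern is not read as particular to Kit. In RS KO replicate 2 this block stood at the 70.0 percentile of its library while the promoter peak was at the bottom, and in RS KO replicate 1 the block (8.21) also exceeded the promoter (6.26).

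limma compared these adult-only calls with c-Kit+ KO after centring, and the value there has to be read with the scale. The block differed between PS KO and c-Kit+ KO by 0.16 (SE 0.321, limma adjusted p = 0.676), and without centring the libraries by 1.27 (limma adjusted p = 0.000111). A region that no compared library called takes a value of −1.23 in this contrast, because the median region of the adult libraries was more enriched than that of the spermatogonial ones while the fill value was not. In this contrast limma called 63.5% of all regions (60.4% lower), and the 17 of 19 Kit regions that it called lower included regions with peaks in PS KO and none in c-Kit+ KO. Those calls are therefore not read as a loss of acetylation. Between RS KO and PS KO the block differed by 0.19 (SE 0.321, limma adjusted p = 0.748).

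A second adult site, 176.5 to 174.5 kb before the start (75398456 to 75400465), was stronger in spermatids than in spermatocytes. Its fold enrichment was 4.58 and 4.27 in PS KO and 11.3 and 8.11 in RS KO, with heights of 11, 7, 28 and 14. The RS KO libraries were both above the PS KO libraries. The main region of the site had a log2 fold enrichment 1.48 higher in RS KO than in PS KO (SE 0.321, limma adjusted p = 0.000175), against 0.39 for a region with no call in either group. In this contrast limma called 22% of all regions (19.7% higher), and this was the 1 region called among 19 Kit regions. The difference kept its direction and stayed past the threshold under all 16 alternatives that gave a value, between 0.78 and 1.60, and was 1.12 without centring. At the 11.3 of RS KO replicate 1 it was the highest fold enrichment of all 90 Kit peaks.

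The third far upstream site, 197.7 to 196.3 kb before the start (75377281 to 75378731), was called in c-Kit+ cells and in no other group. Its fold enrichment was 7.41 in c-Kit+ WT replicate 1, and 6.62 and 5.83 in c-Kit+ KO, with heights of 12, 13 and 9, while c-Kit+ WT replicate 2 had no peak. A call in 3 or 4 c-Kit+ libraries and in no other library was found for 1 of 19 Kit regions and for 0.33% of all regions. limma called it higher in c-Kit+ than in Thy1+ cells, alone among the 19 Kit regions, but it entered the fit through its c-Kit+ peaks and the Thy1+ values are fills, so nothing is read from that call. Its 3 carrying libraries are among those with the Leydig cell markers above, whose part in it was not tested. A weaker pair of peaks, 187.5 to 185.8 kb before the start, was seen in c-Kit+ WT replicate 1 (3.99) and c-Kit+ KO replicate 1 (3.78).

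**Figure D4:**
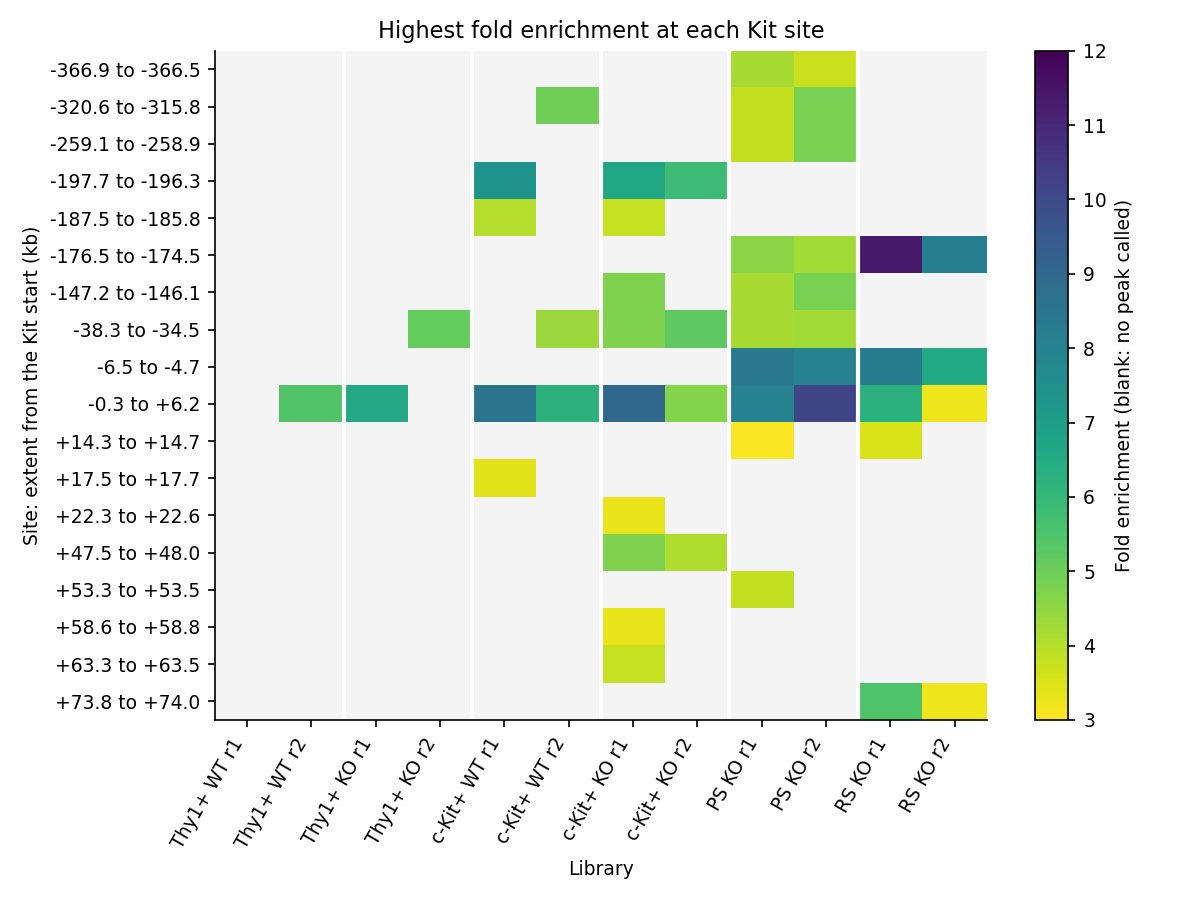
Highest fold enrichment at each of 18 Kit sites (rows, peaks joined within 2000 bp, extent in kb from the Kit start) in the 12 libraries (columns, r1 and r2 are replicates); blank cells have no called peak. The row from −0.3 to +6.2 kb, which holds the promoter, is filled in 10 libraries, the row at −197.7 kb in c-Kit+ libraries and the row at −176.5 kb in adult libraries.

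The 38.3 to 34.5 kb upstream interval (75536693 to 75540439) was the site most shared between ages after the promoter. It had peaks in Thy1+ KO replicate 2 (5.12), c-Kit+ WT replicate 2 (4.34), both c-Kit+ KO libraries (4.73 and 5.25) and both PS KO libraries (4.19 and 4.27). RS KO had none. In PS KO replicate 1 the interval was broken into 6 peaks covering 1644 bp, and in c-Kit+ KO replicate 1 into 3 peaks covering 819 bp. In the other libraries it was 1 or 2 narrow peaks.

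The remaining upstream sites were mostly those of spermatocytes and were weak. The sites 366.9, 320.6, 259.1 and 147.2 kb before the start were called in both PS KO libraries, at fold enrichments from 3.73 to 4.80, and in neither RS KO library. The one at 320.6 kb was also called in c-Kit+ WT replicate 2 (4.96), and the one at 147.2 kb in c-Kit+ KO replicate 1 (4.73). The farthest lies 9.93 kb past the end of Pdgfra in the RefSeq table and 366.9 kb from Kit, so the authors' assignment to Kit does not follow the nearest gene body there. A call in both PS KO libraries and in no other was found for 4 of 19 Kit regions and for 10.3% of all regions.

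Inside the gene, peaks clustered in the first 6.2 kb. The promoter site ran from 0.348 kb before to 6.17 kb after the start when peaks of all libraries were joined, and c-Kit+ KO and PS KO libraries each had 3 to 5 peaks in it. Beyond it, 8 intragenic sites lay between 14.3 and 74.0 kb after the start, of which 5 were called in a single library at fold enrichments of 3.31 to 3.81. Their peaks were short, with a median of 221 bp over all 25 intragenic peaks and a median fold enrichment of 3.81, against 264 bp and 6.08 at the promoter.

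The number of intragenic peaks is given by library, with no test. The 4 Thy1+ libraries had none. c-Kit+ WT had 4 and 0, c-Kit+ KO 7 and 3, PS KO 4 and 4, and both RS libraries fewer, 2 and 1. 1 c-Kit+ WT library thus had none, like the Thy1+ libraries. The site 47.5 to 48.0 kb after the start (75622452 to 75622962) was called in both libraries of c-Kit+ KO, at 4.73 and 4.08, with no peak there in the other 10 libraries.

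The last intragenic site was called in the RS KO libraries and in no other. It lay 73.8 to 74.0 kb after the start (75648757 to 75649031), 7.69 kb before the listed end of Kit, and had a fold enrichment of 5.48 in RS KO replicate 1 and 3.25 in replicate 2, with heights of 13 and 5. A call in both RS KO libraries and in no other was found for 2 of 19 Kit regions and for 12.4% of all regions. It entered the limma fit through these 2 libraries, so no test of it is given. The value in replicate 2 is the lowest fold enrichment called in that library. The start of the truncated transcript could not be placed against this peak, since no exon coordinates were used here. The site 14.3 to 14.7 kb after the start was the other intragenic site of spermatids, at 3.52 in RS KO replicate 1 and 3.05 in PS KO replicate 1.

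Between Scml2-KO and WT spermatogonia, no Kit region passed the threshold. The log2 fold enrichment of the promoter region differed by −0.25, KO minus WT (SE 0.227, limma adjusted p = 0.448), with a 95% interval of −0.69 to 0.20. A region with no call took −0.27 in this contrast. In this contrast limma called 0.00163% of all regions, and 0 of 19 Kit regions passed, also at an unadjusted p under 0.05. Without Thy1+ KO replicate 2, the library with the lowest background height, 5 of 11 regions of the window passed, where 59.5% of all regions were called, so this count is not a result about Kit. In the blocked fit no Kit region of the window passed either, and 0.0195% of all regions were called. The genotype effect at the promoter differed between c-Kit+ and Thy1+ cells by 0.16 (SE 0.454, limma adjusted p = 0.835), with 0.00163% of all regions called, or 0.00976% in the blocked fit. A region with no call took 0.41 in that contrast. Kit peaks were more numerous in c-Kit+ KO (15 and 7) than in c-Kit+ WT (9 and 3), with overlapping ranges and numbered 2 and 1 in Thy1+ KO against 0 and 2 in Thy1+ WT.

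In log2 fold enrichment, the promoter region differed from spermatocytes to spermatids by −0.64 (SE 0.321, limma adjusted p = 0.147), and from c-Kit+ KO to PS KO by −0.63 (SE 0.321, limma adjusted p = 0.0735). Neither passed the threshold. Without centring the second difference was 0.48, in the opposite direction, so the data give no direction for it. It passed the threshold with the −log10 q filter (limma adjusted p = 0.0186), with equal numbers of top peaks (0.0108) and with the replicate block (0.0212). In these fits limma called 58.9%, 29.2% and 71.5% of all regions. The other difference passed with the replicate block (limma adjusted p = 0.0407), where 32% of all regions were called. Replicate numbers were not taken to pair libraries with an adult group. The uncentred fold enrichments of PS KO (8.01 and 10.1) and c-Kit+ KO (8.99 and 4.66) overlap.

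The ligand and the related receptors showed no difference past the threshold between the spermatogonial groups. Kitl, the KIT ligand made by Sertoli cells, had a promoter peak in all 8 spermatogonial libraries and both PS KO libraries. Its fold enrichment was 7.34 and 4.83 in Thy1+ WT, 9.11 and 8.95 in Thy1+ KO, 9.12 and 6.82 in c-Kit+ WT, 12.3 and 7.00 in c-Kit+ KO, and 11.4 and 14.4 in PS KO, with no peak in either RS KO library. From PS KO to RS KO it fell by 1.65 in log2 fold enrichment (SE 0.321, limma adjusted p = 2.71e-05), with both RS KO libraries at fill values, where a region with no call in either group took 0.39. Of 5 tested Sertoli cell markers limma called 4 lower in the same contrast, and their part in the Kitl value was not tested. Pdgfra, the receptor gene next to Kit, had a promoter peak in 11 libraries and fell by 0.87 between the same groups (limma adjusted p = 0.0369). From Thy1+ to c-Kit+ cells none of the 4 tested promoters of this list of 5 passed, and their median difference was −0.03 against 0.08 over 12740 promoter regions, of which 0.392% were called. From PS KO to RS KO 1 was called higher and 2 lower, where 11.8% of promoter regions were called higher and 1.85% lower. The higher one was Csf1r, a macrophage receptor gene, at 3.05 in PS KO replicate 1 and 9.00 and 4.33 in RS KO. Flt3 had no promoter peak in any library.

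Most genes of the intracellular pathway had promoter peaks in every library. Of 25 genes for KIT signalling, 23 had one in all 12 libraries, as had 31.2% of the 27025 genes of the RefSeq promoter table, coding or not. Grb2, an adaptor, had one in 11 and Ptpn6, a phosphatase that restrains KIT, in 4. None of the 25 differed past the threshold between c-Kit+ and Thy1+ cells (median −0.05 against 0.08 over promoter regions). The smallest unadjusted p in that contrast belonged to Stat3, a transcription factor of the JAK-STAT branch, at −0.57 (SE 0.227, limma adjusted p = 0.55). From c-Kit+ KO to PS KO 1 was called higher and 2 lower, where 7.23% and 23.8% of promoter regions were. Cbl, a ubiquitin ligase that turns KIT over, rose by 0.83 (limma adjusted p = 0.018), from 9.93 and 6.41 to 27.8 and 33.6 in fold enrichment. The 2 lower ones, the Src family kinases Lyn and Src, had uncentred fold enrichments that were not lower (Lyn 6.62 and 5.25 against 8.01 and 5.86). From PS KO to RS KO Lyn rose by 1.24 (limma adjusted p = 0.00177), to 14.1 and 11.4, the 1 of 25 to pass. In that contrast 11.8% of promoter regions were called higher and 1.85% lower.

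Of 9 genes listed as possible regulators of Kit, Rara, Rarg and Sp1 had a promoter peak in all 12 libraries and Nanos2, which represses differentiation, in none. Sohlh1, a transcription factor of differentiating spermatogonia, had one in 5 libraries, at 6.08 in Thy1+ KO replicate 1, 3.78 in c-Kit+ KO replicate 1, 6.48 in PS KO replicate 1 and 4.69 and 3.79 in RS KO. Its relative Sohlh2 had one in PS KO replicate 1 alone. Dmrt1 had one in 9, Zbtb16 in 8 and Stra8 in 3. None of the 7 tested passed the threshold in any of the 5 contrasts. Of promoter regions, limma called 0.392% from Thy1+ to c-Kit+ cells and 0% for genotype or the interaction. From c-Kit+ KO to PS KO it called 7.23% higher and 23.8% lower, and from PS KO to RS KO 11.8% higher and 1.85% lower. Among 9 protein-coding neighbours on chromosome 5, Fip1l1, Chic2, Srd5a3, Tmem165 and Clock had a promoter peak in all 12 libraries, Lnx1 and Gsx2 in none, and Kdr, the next receptor gene downstream, in Thy1+ KO replicate 1 alone (4.56). Of the 6 neighbours tested, none passed from Thy1+ to c-Kit+ cells and 1, Pdgfra, passed from PS KO to RS KO.

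The promoters most like that of Kit over the 12 libraries were Fads2 (Pearson r = 0.955), Thoc6 (0.948), Map6d1 (0.932), Stxbp6 (0.925) and Nfil3 (0.917), among 11098 genes with a promoter peak in at least 6 libraries. The measure is the correlation of centred log2 values, a description over 12 libraries that differ in depth and share 1 fill rule. At Fads2 the RS KO mean of 9.07 ± 2.11 (SD, n = 2) compared with 13.8 ± 0.0951 (SD, n = 2) for PS KO. Stxbp6 had a peak in 1 of the 2 libraries of each Thy1+ group, and its fold enrichment was 6.81 ± 0.856 (SD, n = 2) in c-Kit+ WT.

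The inputs entered none of these values. In 15 of 16 no peak met the rule for Kit, and none had a promoter peak. A single peak was called in c-Kit+ KO input replicate 2, from 75660369 to 75660617, 3.65 kb past the end of Kit, with a height of 11 and a fold enrichment of 6.17. No H3K27ac library had a peak there.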

How the data were processed

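The authors deposited 1 peak table per library, with 1 line per summit, so replicates were not pooled. The submitters' processing notes name Bowtie, MACS2 and mm10, with no version or order. Per the file headers, each line gives a signal height (pileup) at the summit, a −log10 p, a fold enrichment and a −log10 q. The deposited height (signal) is a whole number. The deposited fold enrichment is a ratio to a background height. The −log10 q as the authors gave it served to filter peaks, and the deposited −log10 p was not used. Read depth is unknown. Coordinates count from 1 as in the files.

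Lines of a peak were joined and its highest summit kept. Peaks of the 12 libraries overlapping by at least 1 bp were merged, and regions called in 2 or more libraries were tested with limma 3.58.1 (R 4.3.3) on log2 fold enrichment, with 6 group means. Uncalled libraries took their lowest fold enrichment, and the libraries were centred on their medians over the 9239 regions called in all 12. Adjusted p-values are Benjamini-Hochberg over 61463 regions. limma was tested on simulated data. Peak numbers were compared by exact permutation (Python 3.11.15, scipy 1.17.1). Same-numbered libraries deviated together with correlations of 0.279 to 0.495 in the 6 pairs of spermatogonial groups and −0.0441 to 0.166 in the 9 pairs with an adult group, so the numbers were taken to pair the spermatogonial libraries alone. The blocked fit nevertheless held the number in all 12 libraries, the adult ones included. The labels do not say what a number marks. Replicate 1 had more peaks than replicate 2 in every group, and the part of peak number in these correlations was not tested. No replicate pair shared more than 3 identical peaks.

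Members and lists were chosen with earlier results of these data known. Named were Kit and its peaks, up to 4 members of each list by smallest p in a contrast, marker genes, and the 5 genes most like Kit. Of 87 list genes 63 had a start in the RefSeq promoter table (GRCm38.p6), 22 took theirs from the authors' tables, and Ret and Adgre1 had neither.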

Additional observations from a re-analysis of the deposited data

How the results depend on the processing

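Replicate numbers paired the spermatogonial libraries by the check used, and not those with an adult group. The block covered all 12 libraries even so. In a fit that held the replicate number as a block, the Kit promoter difference between c-Kit+ and Thy1+ cells (0.78) had a limma adjusted p of 0.00332, that between PS KO and c-Kit+ KO (−0.63) one of 0.0212 and that between RS KO and PS KO (−0.64) one of 0.0407. In the order of these differences, the blocked fit called 1.69%, 71.5% and 32% of all regions. The block gave 1 region of the Kit window past the threshold for c-Kit+ against Thy1+ cells and 2 for RS KO against PS KO. Beside a share of 32%, the latter count is not read as a result about Kit. Of the exact permutation tests of peak number, the block gave 0.25, 0.25 and 0.444 in the order of the report.

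For c-Kit+ against Thy1+ cells the promoter difference passed in 7 of 20 alternatives: 0.81 with only the groups compared, 0.78 with regions called in at least 6 libraries or the spread modelled on the mean, and 0.71 with equal numbers of top peaks in every library among them. In these 4, 1 window region passed instead of 0, while limma called 1.63%, 5.53%, 0.698% and 11.6% of all regions in that order against 0.356%. With uncalled libraries at a fold enrichment of 1 (2.4% of all) and with quantile normalization (1.96%), 1 window region also passed. The promoter did not pass in either (limma adjusted p = 0.354 and 0.361). Nor did it pass without centring (0.54, limma adjusted p = 0.747) or with the −log10 q filter (0.55, limma adjusted p = 0.243). Leaving out single libraries gave 0.56 to 1.03, and 0 to 2 window regions, 2 without Thy1+ KO replicate 2 (3.61% of all). Quantile normalization also gave 1 window region for KO against WT (0.434% of all), the interaction (0.423%) and RS KO against PS KO (30.8%). For KO against WT the promoter value was 0.00093 without centring, and leaving out libraries gave 0 to 5 window regions, the 5 where 59.5% of all regions were called. The interaction was −0.052 with quantile normalization, −0.34 without centring and −0.33 to 0.60 without single libraries.

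For PS KO against c-Kit+ KO the promoter differed by −0.74 (peaks with −log10 q of at least 5), −0.63 (same number of peaks), both past the threshold, and by 0.48 (no centring). The 9 window regions (63.5% of all regions called) became 0 with called libraries only (31.3%) or regions called in at least 6 libraries (33.6%). They became 1 of 2 tested with the −log10 q filter (58.9%), 2 with the same number of peaks (29.2%) and 3 with quantile normalization (19.2%). They became 4 without centring (34.8%), and 5 with uncalled libraries at 1 (36.9%) or with summit windows (57.3%). Without single libraries they became 2 to 6 (9.07% to 62.5%). For RS KO against PS KO there were 3 with uncalled libraries at 1 (35.9%) and 2 without centring (40.6%). With such shares called over all regions, these counts are not read as results about Kit. The adult block next to the gene turned direction for PS KO against c-Kit+ KO with the −log10 q filter (−0.55), the same number of peaks (−0.21) and without c-Kit+ KO replicate 1 (range without single libraries −0.087 to 0.42), and for RS KO against PS KO with quantile normalization (−0.083) and without centring (−0.17). The adult excess in window peaks over KO spermatogonia (2.75) was −0.5 with equal numbers of top peaks. The cause of these changes was not tested. Called libraries alone gave no promoter value for the 3 spermatogonial contrasts. The spread on the mean, the uncentred fits and the alternatives of single regions were chosen after seeing the data. Heights at the named sites were 5 to 28, and the lowest height called was 5 to 7.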
